A study of Mus musculus with 10 samples.

Results

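Tubulin isotypes are the closely related gene products from which microtubules are built. The 10 genes described here code for 5 alpha tubulins (Tuba1a, Tuba1b, Tuba1c, Tuba4a and Tuba8) and 5 beta tubulins (Tubb2a, Tubb2b, Tubb3, Tubb4a and Tubb5). They were found by gene symbol in the deposited count table, which holds 40481 distinct Ensembl genes, with 1 row for each of the 10. Each passed the filter on low counts and was tested among 18401 genes. The RNA came from C57BL/6 mice, from dorsal root ganglia (DRG), in which the cell bodies of sensory neurons sit together with their glia. A group of 5 libraries is labelled with oxaliplatin at 10 mg/kg and 8 weeks of treatment; oxaliplatin is a platinum compound for bowel cancer whose main lasting side effect is a sensory neuropathy. The other 5 libraries came from mice given vehicle, and their labels also give 8 weeks. The labels number the libraries without naming an animal for each, so the p-values rest on the spread between libraries, which may be technical. They give no age and no dosing interval.

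An alpha and a beta tubulin pair into a dimer, and dimers stack into the hollow microtubules that hold axons open and serve as tracks for transport between the cell body and the nerve ending. Mammals carry several genes for each partner, and their products differ mostly in the last residues of the protein, the acidic tail that reaches out from the microtubule and is the site of many enzyme modifications. Tubb3 is the class III beta tubulin used as a marker of neurons, Tuba1a is the main alpha tubulin of neurons, and Tubb5 is made in most cell types. Cells also hold tubulin mRNA in balance with free tubulin, since surplus dimers trigger the decay of tubulin mRNA while it is being translated. A sensory neuron with a long axon keeps a large pool of these transcripts.

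The coding sequences of some members are near copies of each other, which matters for every value that follows. The stretches below are the last 60 coding bases before the stop codon (GENCODE M21 transcripts, GRCm38), which code for the acidic tail. They are shown for the called beta members and for Tubb3, and capitals mark the bases that differ from Tubb2a at the same distance from the stop codon.
Tubb2a: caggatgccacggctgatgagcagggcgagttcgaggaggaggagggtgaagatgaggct
Tubb2b: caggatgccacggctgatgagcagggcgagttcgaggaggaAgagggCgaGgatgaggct
Tubb3: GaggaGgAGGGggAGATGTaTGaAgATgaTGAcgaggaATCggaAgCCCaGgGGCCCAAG
Tubb2b differed from Tubb2a at 3 of these 60 bases, whereas Tubb3 differed at 36. Over the whole coding sequence, Tubb2a and Tubb2b were identical in 96.5% of aligned bases, and Tuba1a and Tuba1b in 98.3%. Tuba4a and Tuba1a were identical in 84.7%, and Tubb3 and Tubb2a in 83.4%. In RefSeq's gene order, Tubb2a and Tubb2b lie next to each other on chromosome 13, and Tuba1b, Tuba1a and Tuba1c lie side by side on chromosome 15, counting protein-coding genes.

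How much of each transcript a read could place without doubt was counted with windows of 100 bases along 1 principal transcript per gene. For Tuba1a 65.1% of windows also occurred in an annotated transcript of another gene, for Tuba1b 69.5% and for Tuba1c 53.4%. For Tubb2a the share was 36.9% and for Tubb2b 27.8%, nearly all of it with each other (35.9% and 26.1%). For Tuba4a, Tuba8, Tubb3, Tubb4a and Tubb5 it was 0%. The counts of the 5 genes with shared windows are therefore uncertain, since the sources used here do not say how reads that fit several genes were treated. Tubb3 and Tuba4a do not have that limit at this window length. Sums over near copies are given beside the single genes.

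**Figure D1:**
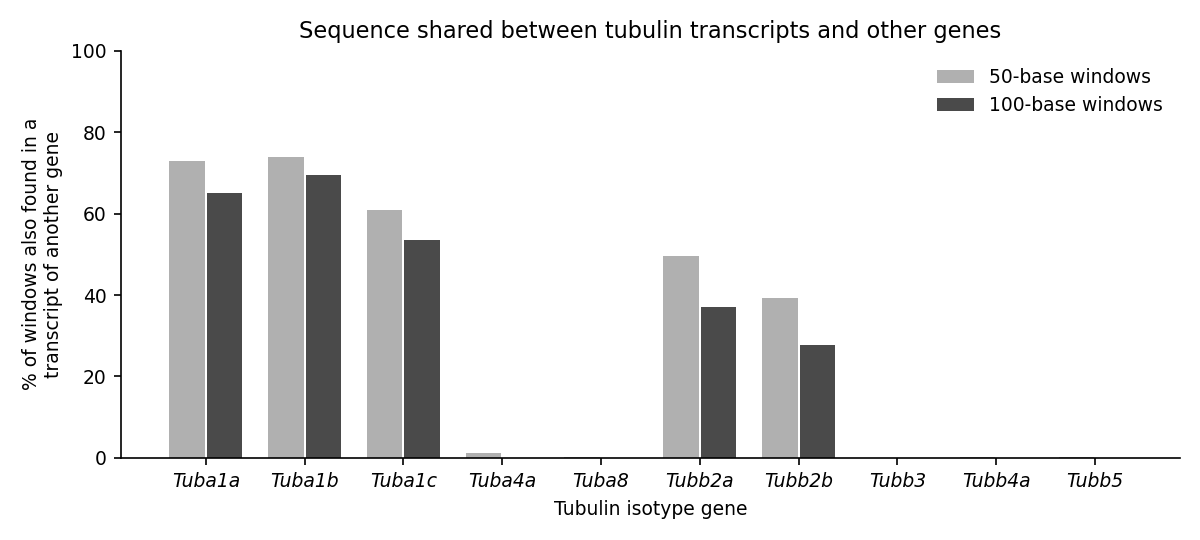
Percentage of 50-base (light bars) and 100-base (dark bars) windows of each member's principal transcript that also occur in an annotated transcript of another gene. The Tuba1 and Tubb2 genes share 27.8 to 69.5% of their 100-base windows, and the other 5 members share 0%.

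Libraries held 52963470 to 60984426 counts, and the 10 genes together took 2.47 to 2.98% of each. The tissue label was checked against sensory neuron markers. The intermediate filament gene Prph stood at 740.1 ± 32.2 CPM (read counts scaled to library depth with TMM factors; mean ± SD, n = 5) after vehicle, the synaptic gene Snap25 at 2591 ± 322 and the transcription factor Isl1 at 203 ± 11.1, so neuronal RNA was plentiful. A pair of libraries stood apart. Sprr1a, a gene switched on in injured sensory neurons, reached 189 CPM in vehicle replicate 5 and lay between 0.137 and 11.6 CPM in the other 9. The adipocyte protease gene Cfd reached 457 CPM in oxaliplatin replicate 1 and lay between 3.91 and 29.3 CPM elsewhere. The members' count of calls, and the list counts that differ, are given with and without both.

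In vehicle libraries the members spanned more than 3 orders of magnitude in level per kilobase of merged exons (GENCODE M21 lengths). Tuba1a was highest at 5984 ± 329 CPM per kb (n = 5), followed by Tubb3 at 5039 ± 390, and their vehicle ranges (5631 to 6365 and 4620 to 5471) did not overlap. Next came Tuba1b at 1122 ± 104, Tubb2a at 847 ± 41.8, Tubb4a at 736 ± 50.5 and Tubb5 at 674 ± 32.9 CPM per kb. Tubb2a (805 to 913) overlapped Tubb4a (680 to 811), and Tubb4a overlapped Tubb5 (638 to 727), so the order within those pairs was not beyond the spread. Tubb2b followed at 198 ± 13.8 and Tuba4a at 160.0 ± 21.1 CPM per kb, again with overlapping ranges. Tuba1c, at 25.9 ± 5.24, and Tuba8, at 2.11 ± 0.135 CPM per kb, were lowest. With the length of the principal transcript instead of merged exons, Tubb5 came before Tubb4a and Tuba4a before Tubb2b, and the other 6 kept their places. A single alpha gene and a single beta gene thus held most of the tubulin transcript in this ganglion.

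After oxaliplatin 3 of the 10 isotype genes fell and 0 rose (edgeR, threshold of 0.05 on p adjusted over all tested genes). Those that fell were Tubb2b and Tubb2a, class II beta tubulins of neurons, and Tuba4a, an alpha tubulin found in brain and muscle. At an unadjusted p below 0.05 there were 6, all lower, where 16.3% of all tested genes had such a p in either direction, and DESeq2 and limma voom also called 0 higher. Of all tested genes, 0.772% were called lower and 1.27% higher. In 5 members every oxaliplatin library lay below every vehicle library, a pattern seen in 1.77% of tested genes, and in 0 members did every one lie above (2.25% of tested genes). The median log2 fold change of the members was -0.19, beside 0.01 for all tested genes. All changes were small, with called falls of 1.16-fold to 1.29-fold. In bulk tissue, fewer cells of a type and less RNA per cell cannot be told apart.

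**Figure D2:**
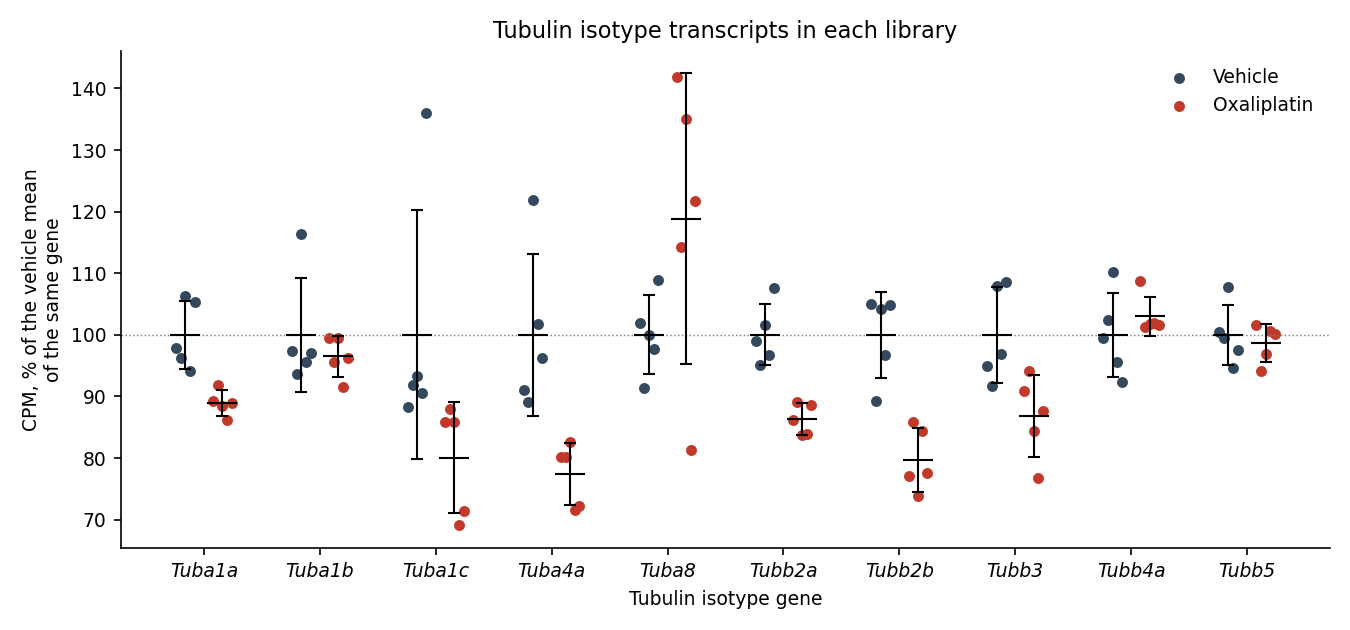
CPM of each member in each library as a percentage of that gene's vehicle mean, with vehicle in dark blue, oxaliplatin in red, and bars for mean and SD (n = 5 and 5). Oxaliplatin points lie below every vehicle point for Tuba1a, Tuba1c, Tuba4a, Tubb2a and Tubb2b, and the groups overlap for the other 5.

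Tubb2b had the smallest p of the members. Its oxaliplatin libraries, replicates 1 to 5, stood at 349.7, 389, 335, 383 and 352 CPM, and its vehicle libraries at 476, 405, 473, 439 and 476 CPM. The groups did not overlap, although oxaliplatin replicate 2 and vehicle replicate 2 came close. The mean fell from 454 ± 31.6 to 362 ± 23.4 CPM (n = 5 and 5), a log2 fold change of -0.33 ± 0.06 (SE, edgeR adjusted p = 0.0140). The call held in 9 of 10 fits that left out 1 library, and the adjusted p was 0.0538 without oxaliplatin replicate 5.

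Tubb2a lies beside Tubb2b and codes for nearly the same protein. Oxaliplatin replicates 1 to 5 stood at 1175, 1216, 1142, 1144 and 1209 CPM, and vehicle replicates at 1350.3, 1297, 1386, 1320.5 and 1469 CPM. Again every oxaliplatin library was below every vehicle library, with a narrow spread in the treated group. The mean went from 1364 ± 67.3 to 1177 ± 35.0 CPM, a log2 fold change of -0.21 ± 0.05 (edgeR adjusted p = 0.0343). That call held in only 2 of 10 fits that left out 1 library, those without oxaliplatin replicate 2 or vehicle replicate 2, and the adjusted p reached 0.124 without oxaliplatin replicate 4. The sum of Tubb2a and Tubb2b, which does not depend on how reads were divided between them but would miss reads left out, was 1477 to 1606 CPM after oxaliplatin and 1702 to 1945 CPM after vehicle. For each 100 reads of Tubb2a there were 29.1 to 33.5 of Tubb2b after oxaliplatin and 31.2 to 35.3 after vehicle, ranges that overlap.

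Tuba4a was the third called member, and it shared no 100-base window with another gene. It stood at 475, 475, 489, 424 and 428 CPM in oxaliplatin replicates 1 to 5 and at 539, 528, 722, 602 and 570.1 CPM in vehicle replicates 1 to 5. Vehicle replicate 3 was highest by a wide margin, but the lowest vehicle library still exceeded the highest oxaliplatin library. The mean went from 592 ± 78.1 to 458 ± 30.0 CPM (log2 fold change -0.37 ± 0.08, edgeR adjusted p = 0.0234). Without vehicle replicate 3 the call held, at -0.28 ± 0.06 (edgeR adjusted p = 0.0274), where Tubb2b was at -0.31. It was lost without oxaliplatin replicate 4 (0.0740), oxaliplatin replicate 5 (0.0742) or vehicle replicate 4 (0.0643).

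Without oxaliplatin replicate 5, 0 of the 3 calls remained, and without oxaliplatin replicate 4 or vehicle replicate 4 only that of Tubb2b did. In those fits 0.183 to 0.220% of all genes were called lower. Without both oxaliplatin replicate 1 and vehicle replicate 5, a fit chosen after seeing the data, 0 members were called, with adjusted p values of 0.0508 for Tubb2b, 0.0578 for Tuba4a and 0.120 for Tubb2a. Their log2 fold changes there were -0.30, -0.40 and -0.18, and 0.411% of all genes were called lower.

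The main neuronal pair did not pass the threshold. Tuba1a, the most abundant member, stood at 9631, 9912, 9548, 9293 and 9599 CPM after oxaliplatin and at 10567, 10389, 11476, 10153 and 11359.7 CPM after vehicle. The groups did not overlap, with a log2 fold change of -0.17 ± 0.05 (edgeR adjusted p = 0.0846). DESeq2 called it (adjusted p = 0.0493), as did limma voom with quality weights (0.0303). Tubb3 stood at 8559, 8859, 7942, 7228 and 8245 CPM after oxaliplatin and at 8935, 8629.6, 10152, 9123 and 10220.4 CPM after vehicle. Here oxaliplatin replicate 2 lay within the vehicle range. Tubb3 had a log2 fold change of -0.20 ± 0.06 (edgeR adjusted p = 0.113), close in size to that of Tubb2a but with a wider spread between libraries.

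Tubb5, Tubb4a and Tuba1b, the broadly expressed beta tubulin, a beta tubulin of neurons and oligodendrocytes and a broadly expressed alpha tubulin, had the values closest to 0. Tubb5 was at 2113 to 2279 CPM after oxaliplatin and 2124 to 2417 CPM after vehicle (log2 fold change -0.02 ± 0.05, edgeR adjusted p = 0.899). Tubb4a was at 1660.1 to 1783 and 1515 to 1807 CPM (0.04 ± 0.05, edgeR adjusted p = 0.758), and Tuba1b at 1926 to 2094 and 1970.4 to 2447 CPM (-0.05 ± 0.06, edgeR adjusted p = 0.734). The groups overlapped for all 3, and differences of the size of these SEs could not be detected. The sign for Tubb5 turned without a composition factor (0.02) and in limma voom (below 0.01 in size). That for Tuba1b turned without vehicle replicate 3 (0.01).

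The 2 least abundant members had the largest SEs. Tuba1c, a minor alpha tubulin, stood at 51.0, 52.2, 50.9, 41.0 and 42.3 CPM after oxaliplatin and at 52.3, 54.5, 55.4, 53.7 and 80.6 CPM after vehicle. The groups just failed to overlap, and vehicle replicate 5, the library high in Sprr1a, stood far above the rest. Tuba1c had a log2 fold change of -0.32 ± 0.12 (edgeR adjusted p = 0.186), and without vehicle replicate 5 it was -0.18 ± 0.08 (0.292). In the same library Tubb6, a beta tubulin named after its values were seen, was at 93.5 CPM (28.1 to 35.5 CPM in the other 9). The axon growth gene Gap43 was at 709 CPM there (377 to 521 CPM in the other 9). Over all libraries Tubb6 had a log2 fold change of -0.37 ± 0.35 and Gap43 of -0.33 ± 0.13 (edgeR adjusted p = 0.666 and 0.213). The part of that library's injury genes in the Tuba1c difference was not tested. Tuba8, an alpha tubulin with few reads here (233 to 377 counts per library), stood at 6.77, 5.45, 6.45, 3.88 and 5.81 CPM after oxaliplatin and at 4.87, 4.36, 4.77, 4.66 and 5.20 CPM after vehicle. All but oxaliplatin replicate 4 were above every vehicle library, and that 1 was below them all (log2 fold change 0.25 ± 0.15, edgeR adjusted p = 0.441).

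**Figure D3:**
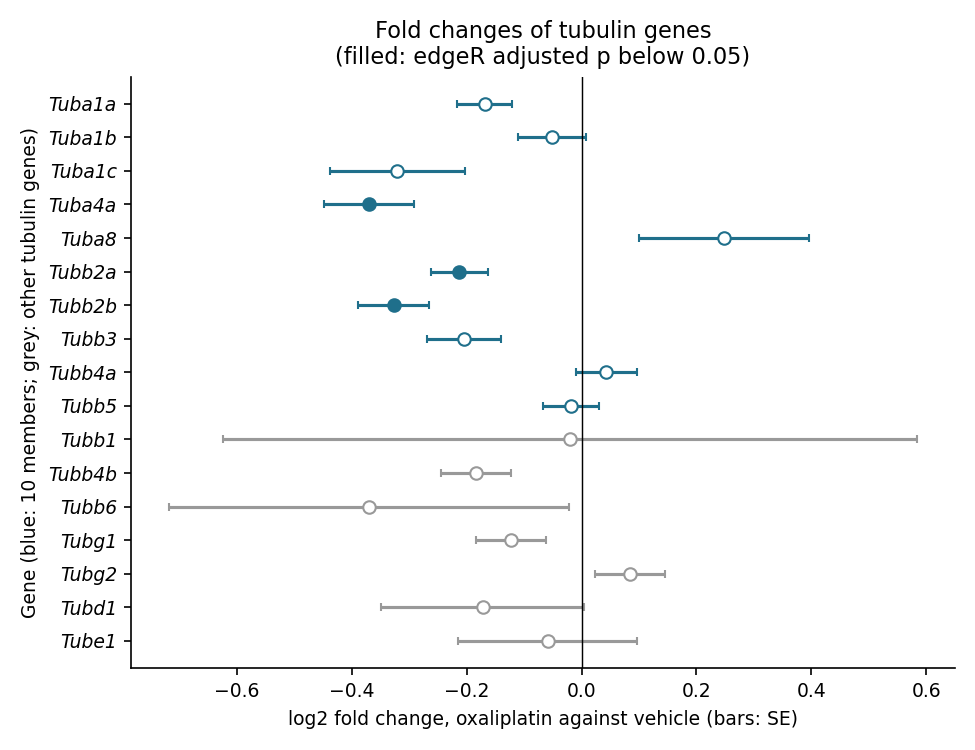
Log2 fold change with SE for the 10 members (blue) and 7 other tested tubulin genes (grey), with filled points for an edgeR adjusted p below 0.05. The 3 filled points are Tuba4a at -0.37, Tubb2b at -0.33 and Tubb2a at -0.21.

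As a pool, the 5 alpha members and the 5 beta members were lower by a like amount. The 5 alpha members summed to 11688 to 12455 CPM after oxaliplatin and 12823 to 14705 CPM after vehicle, with a mean 10.4% lower. The 5 beta members summed to 12683 to 14237 and 14242 to 16235 CPM, 9.95% lower. Neither pair of ranges overlapped, though for the beta sum the gap was only that from 14237 to 14242 CPM. The libraries on either side of that gap were oxaliplatin replicate 2 and vehicle replicate 2. Tubb4b, a beta tubulin outside the members, stood at 1287 and 1227 CPM in them, so adding it would make the beta ranges overlap. There were 109 to 115 beta reads for each 100 alpha reads after oxaliplatin and 110.0 to 114 after vehicle, and these ranges overlap. The sum of Tuba1a, Tuba1b and Tuba1c, which removes the split between these near copies, was 11260 to 11975 and 12216 to 13978 CPM. Each of them shared 100-base windows with 10 to 11 other genes, some outside this trio. Their sum thus does not remove a split with those genes, and it would miss reads left out. These sums are dominated by Tuba1a and Tubb3 and carry no test.

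Within the pools the makeup of the groups was close. Tuba4a made up 3.54 to 4.01% of alpha reads after oxaliplatin and 4.05 to 4.91% after vehicle, the only share of a member whose groups did not overlap. For each 100 reads of Tuba1a there were 4.46 to 5.12 of Tuba4a after oxaliplatin and 5.02 to 6.29 after vehicle, ranges that overlap. Tuba1b made up 16.1 to 17.2% and 14.5 to 16.6%. Among beta reads, Tubb4a made up 11.7 to 13.2% after oxaliplatin and 9.54 to 11.8% after vehicle, and Tubb5 14.8 to 17.8% and 13.8 to 15.7%. The levels of Tubb4a and Tubb5 were close in the groups, whereas the other beta members had lower means after oxaliplatin. Tubb3 made up 57.0 to 62.2% and 60.6 to 64.4%, and Tubb2b 2.47 to 3.02% and 2.84 to 3.25%. Shares are read shares, not molecule shares, because the transcripts differ in length.

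**Figure D4:**
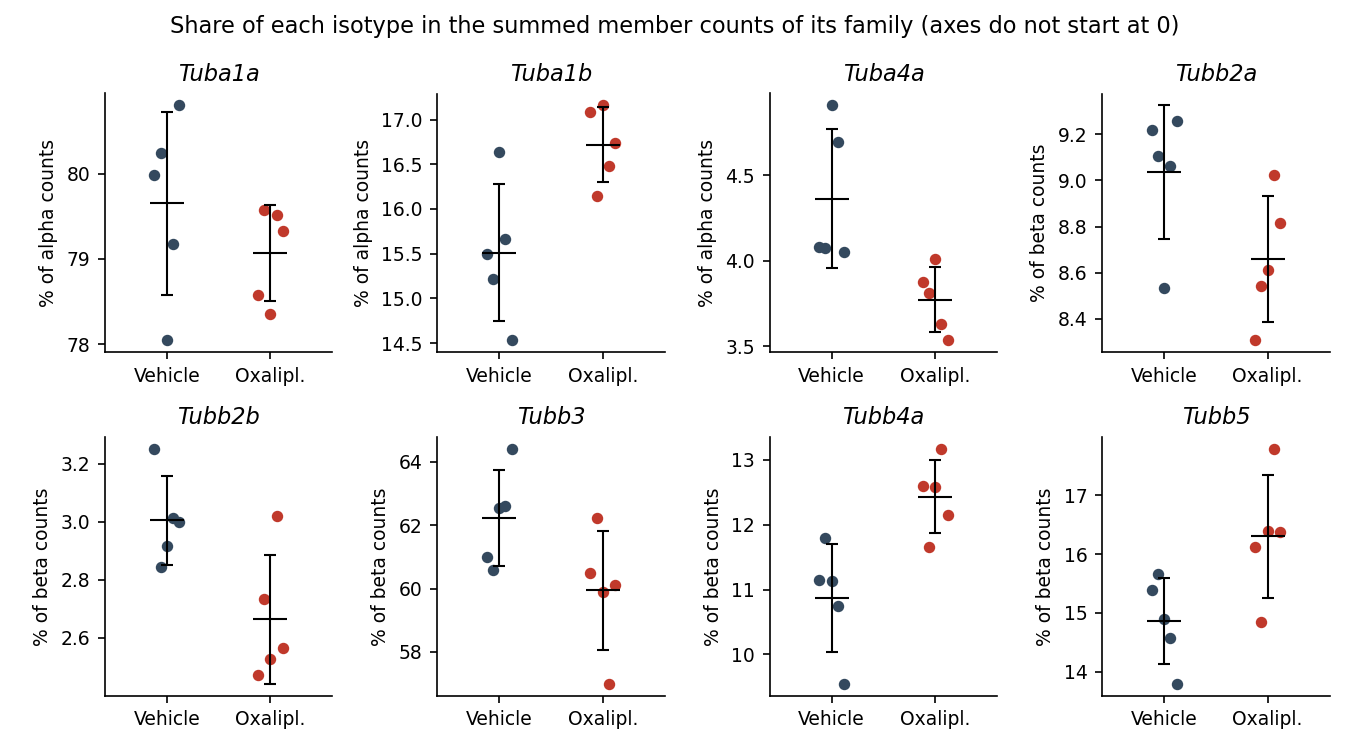
Share of each isotype in the summed counts of the 5 alpha or the 5 beta members, in percent, for each library, with mean and SD (n = 5 and 5); the vertical axes do not start at 0. The Tuba4a groups do not overlap (3.54 to 4.01% after oxaliplatin against 4.05 to 4.91% after vehicle), and the other 7 pairs do.

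Members also differed in how they varied between libraries of the same group. After each group's mean was taken off, Tuba1a and Tubb3 had a Pearson r of 0.84 over the 10 libraries, Tubb2a and Tubb3 0.81, and Tubb4a and Tubb5 0.81, while Tubb3 and Tubb5 had 0.06. Tuba1b and Tuba4a had 0.88, and both were highest in vehicle replicate 3. Of 45 pairs of members 39 were above 0, with a median of 0.35. These values are descriptions over 10 libraries that share depth scaling, and near copies can also share reads. Outside the members, the genes whose levels ran most like Tubb3, out of 13129, were Ehd2 (r = 0.97, Spearman's rho 0.95), a membrane-remodelling ATPase, Dusp23 (0.94 and 0.92), a phosphatase, and Foxj1 (0.93 and 0.90), a transcription factor of ciliated cells. Those most like Tubb2b were Rpp40 (0.92 and 0.88), a part of RNase P, Krcc1 (0.92 and 0.88) and Coasy (0.92 and 0.87), an enzyme of coenzyme A synthesis. Foxj1 was itself called lower after oxaliplatin (log2 fold change -0.76 ± 0.17, edgeR adjusted p = 0.0322). Ehd2 (0.08 ± 0.09) and Dusp23 (0.01 ± 0.14) were not called, nor were Rpp40, Krcc1 and Coasy (edgeR adjusted p from 0.507 to 0.898). These genes are the top of a long ranking, so no test is attached to their likeness.

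Upstream sequence is shown for the called members that RefSeq's promoter table holds, Tubb2a and Tuba4a, and for Tubb5, whose value lay near 0. The table had entries for 9 of the 10 members. Each run is the 120 bases before the RefSeq start (GRCm38.p6), read in the direction of the gene. Capitals mark matches, on either strand, to the TATA box TATAAA, the near-TATA word TATAAG, the GC box GGGCGG, the CCAAT box or the cyclic AMP response element TGACGTCA.
Tubb2a, chr13:34078009-34078128, minus strand: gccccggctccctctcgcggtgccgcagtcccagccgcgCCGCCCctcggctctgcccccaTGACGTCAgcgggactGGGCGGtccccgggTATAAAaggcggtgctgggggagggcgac
Tuba4a, chr1:75219295-75219414, minus strand: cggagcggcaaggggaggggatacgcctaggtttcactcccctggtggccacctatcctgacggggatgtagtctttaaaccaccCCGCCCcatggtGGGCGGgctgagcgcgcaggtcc
Tubb5, chr17:35838302-35838421, minus strand: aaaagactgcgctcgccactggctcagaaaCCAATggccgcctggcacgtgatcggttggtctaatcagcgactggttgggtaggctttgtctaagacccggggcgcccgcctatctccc
Tubb2a held TATAAA, which 6.34% of 32851 promoter windows of this length held, TGACGTCA (1.24%) and GGGCGG (26.5%). Tuba4a held GGGCGG on both strands. Tubb5 held CCAAT (21.3% of windows). Of the members not printed, Tuba1a and Tubb3 held TATAAG, present in 3.41% of windows. A match to a short word describes the letters and not a site in use, and the words were picked as common promoter elements.

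The other tubulin genes and the genes that make, modify and bind microtubules had 1 edgeR call in all. Beside their counts, 16.3% of all tested genes had an unadjusted p below 0.05, and 9010 of 18401 had values below 0. Of 7 other tested tubulin genes 0 passed in edgeR, DESeq2 or limma voom, with 1 at an unadjusted p below 0.05 and a median of -0.12. Tubb4b, a broadly made beta tubulin, stood at 1213 ± 53.0 CPM after oxaliplatin and 1378 ± 125 CPM after vehicle (-0.18 ± 0.06, edgeR adjusted p = 0.141), and Tubg1, the gamma tubulin that seeds microtubules, was at -0.12 ± 0.06 (0.332). Tuba3a, Tuba3b and Tubal3 had at most 10 counts per library and were not tested. Of 8 genes of the gamma-tubulin ring complex 0 passed in any of the 3 tools (2 unadjusted, median 0.06), with Tubgcp2 at 0.15 ± 0.07 and Mzt2 at -0.15 ± 0.07. Genes that fold new tubulin, the CCT ring, prefoldin and the tubulin cofactors, had 0 of 21 past the threshold in any of the 3 tools (3 unadjusted), and 16 had values below 0 (median -0.08). Cct3 and Cct7, parts of the CCT ring, were at -0.13 ± 0.05 and -0.11 ± 0.05 (edgeR adjusted p = 0.227 and 0.259).

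The gene for Ttc5, which recognises nascent tubulin and triggers the decay of its mRNA, was at -0.10 ± 0.06 (edgeR adjusted p = 0.469), and its partner gene Scaper at 0.03 ± 0.08 (0.887), and 0 of 3 genes of this control loop passed in any of the 3 tools (0 unadjusted). Enzymes of acetylation and tyrosination had 0 of 7 in edgeR and limma voom and 1 in DESeq2, Ttl (2 unadjusted in edgeR), and all 7 values were below 0. Ttl, the ligase that puts tyrosine back on alpha tubulin, stood at 118 ± 3.79 CPM after oxaliplatin and 133 ± 2.16 CPM after vehicle without overlap (-0.17 ± 0.05, edgeR adjusted p = 0.103). Vash2, which removes that tyrosine, was at -0.53 ± 0.20 (0.194), from means of only 2.07 ± 0.353 and 2.99 ± 0.813 CPM. Glutamylation and glycylation enzymes had 0 of 18 in edgeR (4 unadjusted, median 0.03) and 1, Tpgs2, in DESeq2 and in limma voom, with the subunits Tpgs2 at -0.22 ± 0.07 and Lrrc49 at -0.19 ± 0.07 (edgeR adjusted p = 0.104 and 0.179).

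Among proteins that bind the lattice, Map6, which makes neuronal microtubules stable against cold, was the 1 of 17 structural microtubule-associated protein genes past the threshold. It fell from 58.1 ± 5.30 to 44.9 ± 4.42 CPM (-0.37 ± 0.08, edgeR adjusted p = 0.0289), and oxaliplatin replicate 2, at 51.1 CPM, lay just above vehicle replicate 2, at 49.6 CPM. DESeq2 and limma voom also called Dclk1, a doublecortin-like kinase gene, lower (-0.26 ± 0.07 in edgeR, adjusted p = 0.0728), and DESeq2 called Map7 higher (0.28 ± 0.09 in edgeR, adjusted p = 0.115). Without both oxaliplatin replicate 1 and vehicle replicate 5, edgeR called 0 of the 17. Over all libraries the list's median was -0.09, and 12 of the 17 values were below 0. In edgeR 6 of the 17 had an unadjusted p below 0.05, in either direction. Stathmins, which bind free dimers, had 0 of 4 in edgeR and DESeq2 (2 unadjusted in edgeR) and 1, Stmn2, in limma voom, with Stmn2, the stathmin of growing axons, at -0.19 ± 0.06 (edgeR adjusted p = 0.0919) and Stmn3 at -0.17 ± 0.06 (0.165). End-binding and severing genes had 0 of 19 in any of the 3 tools (0 unadjusted), and their median was -0.0041. Clip1, a plus-end protein, was at 0.13 ± 0.07 and the minus-end protein gene Camsap2 at 0.12 ± 0.10 (edgeR adjusted p = 0.354 and 0.582).

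**Figure D5:**
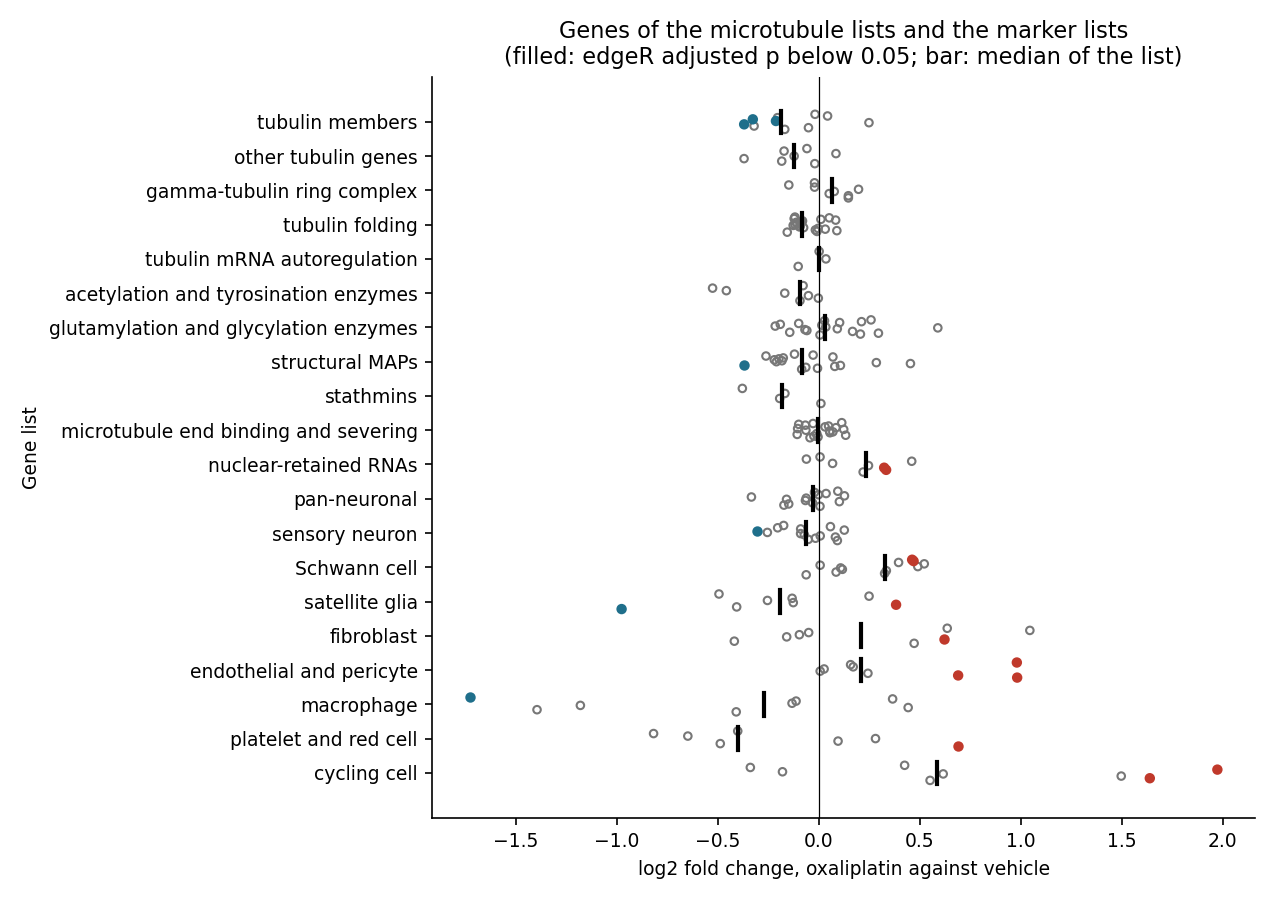
Log2 fold change of every tested gene in the tubulin, microtubule, nuclear-retained RNA and marker lists. Filled points have an edgeR adjusted p below 0.05 (red higher and blue lower), and black bars are list medians. The tubulin members have a median of -0.19, the pan-neuronal markers -0.03 and the Schwann cell markers 0.33.

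Markers of other cell types and nuclear-retained RNAs moved between the same groups. Of 14 pan-neuronal markers 0 were called by any of the 3 tools (5 unadjusted in edgeR), at a median of -0.03, beside the 16.3% of all genes with an unadjusted p below 0.05. Their mean log2 CPM was 8.13 to 8.19 after oxaliplatin and 8.17 to 8.23 after vehicle, and their summed level 7775 to 8085 and 7752 to 8860 CPM. Of 14 sensory neuron markers 1 fell (2 unadjusted in edgeR), the ATP-gated channel gene P2rx3 (-0.31 ± 0.07), and the list's median was -0.06. With the pan-neuronal mean as a covariate 0 members passed (log2 fold changes of -0.20 for Tubb2b, -0.21 for Tubb2a and -0.28 for Tuba4a, edgeR), with adjusted p from 0.455 to 0.540, in a fit that called 0.038% of all genes lower.

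Schwann cell markers had 2 of 12 higher (6 unadjusted in edgeR), Cnp (0.46 ± 0.08) and Drp2 (0.47 ± 0.09), both of myelin-forming cells, and a median of 0.33. They summed to 9641 to 12743 CPM after oxaliplatin and 8638 to 11643 CPM after vehicle. With their mean as a covariate, an alternative chosen after seeing the data, 6 members were called lower, Tuba1a, Tuba1c and Tubb3 in addition, where 1.40% of all genes were called lower. Nuclear-retained RNAs had 2 of 8 higher (5 unadjusted in edgeR), Neat1 (0.33 ± 0.07) and Meg3 (0.32 ± 0.08). The sums of the 8 were 8944 to 11435 and 7868 to 8809 CPM and did not overlap. Whether this list follows RNA quality was not tested. With that list's mean as a covariate, also chosen after seeing the data, 0 members were called (log2 fold changes of -0.23 for Tubb2b, -0.16 for Tubb2a and -0.25 for Tuba4a), and 0.0326% of all genes were called lower. The part of cell makeup or RNA handling in the tubulin values was not tested.

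In each of the remaining lists 1 to 3 genes passed. At an unadjusted p below 0.05 in edgeR there were 6 of 8 satellite glia, 4 of 8 endothelial and pericyte and 4 of 8 fibroblast genes. For macrophages there were 3 of 8, for platelets and red cells 1 of 7 and for cycling cells 3 of 8. Without both oxaliplatin replicate 1 and vehicle replicate 5, edgeR no longer called P2rx3, Meg3, Fabp7, Pdgfra, Abcc9 or Pf4, and it still called Neat1, Cnp, Drp2, Glul, Pecam1, Cdh5, Cx3cr1, Aurkb and Top2a. Satellite glia had Glul, the glutamine synthetase, higher (0.38 ± 0.08) and Fabp7, a fatty acid carrier, lower (-0.98 ± 0.18), at a median of -0.19 over 8 genes (sums of 2928 to 4280.4 and 3525 to 5377 CPM). Endothelial cells and pericytes had 3 of 8 higher, Pecam1 (0.98 ± 0.18), Abcc9 (0.98 ± 0.21) and Cdh5 (0.69 ± 0.17), with sums of 159 to 216 and 144 to 171 CPM. Fibroblasts had 1 of 8 higher, Pdgfra (0.62 ± 0.14), with sums of 2322 to 3265 and 1609.8 to 2437 CPM. Their median was 0.21, and 4 of the 8 values were below 0. Macrophages had 1 of 8 lower, Cx3cr1 (-1.73 ± 0.32), with sums of 46.7 to 64.9 and 45.3 to 83.3 CPM. The macrophage median was -0.27, with 6 of 8 values below 0 and Cd68 (0.44 ± 0.29) and Mrc1 (0.37 ± 0.19) above it. Platelet and red cell markers had 1 of 7 higher, Pf4 (0.69 ± 0.17), with sums of 24.4 to 463 and 107 to 319 CPM. That list's median was -0.40, and 4 of the 7 values were below 0. Cycling cells had 2 of 8 higher, Aurkb (1.97 ± 0.43) and Top2a (1.64 ± 0.39), with sums of 8.62 to 19.6 and 7.37 to 11.6 CPM. Their median was 0.58, and 2 of the 8 values were below 0.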

How the data were processed

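The labels' protocols name RNAlater for storage, magnetic beads for the extraction and a SMARTer kit for the libraries; per the series' design text, RNA integrity exceeded 8. The authors deposited raw read counts per Ensembl gene, not normalized. The submitters' processing notes name STAR 2.5.1a, Partek and DESeq2 without saying which step each did. Build, annotation, strand and counting step are not stated in the sources used here, so no gene coordinates from the table are printed. Of 40757 rows, 276 repeated an Ensembl gene with identical counts and were dropped. Totals of 52963470 to 60984426 counts leave little counting error except for Tuba8.

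Genes kept by filterByExpr were fitted in edgeR 4.0.16 (R 4.3.3) with TMM scaling, a robust quasi-likelihood model of treatment alone and Benjamini-Hochberg adjustment over 18401 genes at 0.05. The SE equals the log2 fold change over the square root of F, and log2 CPM used a prior count of 2. The fit was also run on simulated, independent libraries with planted changes, and that run is not used as support for the calls. The genes named are all members; per pathway list, the called genes (at most 4) or the 2 of smallest p; per marker list, the called genes (at most 3); and the 3 genes most like Tubb3 and most like the member of smallest p. Tubb6, Gap43, Sprr1a, Cfd, Prph, Snap25, Isl1, Dclk1, Map7, Tuba3a, Tuba3b and Tubal3 fall outside that rule and were chosen after their values were seen. The members and lists were chosen with earlier results of these data known. Alternatives were other size factors and filters, DESeq2 1.42.0, limma 3.58.1 voom, a replicate block, covariates, a threshold of 0.1 and leaving out each library. No libraries of a group agreed within counting noise, so none was treated as a repeat deposit of another; that says nothing about separate animals. Lengths and windows came from GENCODE M21, promoters and gene order from RefSeq. Some items are not reported here.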

Additional observations from a re-analysis of the deposited data

Results flagged for a closer look

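In 3 of 20 groups of 5 libraries (10 genes in each treatment), a single library stood apart by Dixon's test, in which the gap to the nearest other library exceeds 0.71 of the group's range; chance gives about 1 in 20 groups. Tuba1c was at 80.6 CPM in vehicle replicate 5, against 52.3 to 55.4 CPM in the other vehicle libraries. Tuba1b was at 2447 CPM in vehicle replicate 3, against 1970.4 to 2047 CPM. Tubb4a was at 1783 CPM in oxaliplatin replicate 1, the library high in Cfd, against 1660.1 to 1671 CPM. Without that oxaliplatin library and vehicle replicate 5 together, the Tubb4a log2 fold change was -0.0044, where it was 0.04 with all libraries.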

How the results depend on the processing

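The count of 3 members lower stayed at 3 with RLE size factors, no composition factor, either other filter and the replicate block. Those fits called 0.538 to 1.51% of all genes lower. The count was 4 in DESeq2, in limma voom and at an adjusted p below 0.1. At that threshold 1.65% of all genes were called lower. It ranged from 0 to 3 when 1 library was left out, was 0 with the pan-neuronal covariate, 0 without both oxaliplatin replicate 1 and vehicle replicate 5, 6 with the Schwann cell covariate, 0 with the nuclear-retained RNA covariate and 2 without vehicle replicates 3 and 5; the last 4 were chosen after seeing the data. The count higher was 0 in every fit run. Over 22 alternatives Tubb2b was called in 18, Tuba4a in 16 and Tubb2a in 10, always below 0. Of all tested genes DESeq2 called 2.21% lower and 2.83% higher, and limma voom 1.98% lower and 2.39% higher. DESeq2 called 3 nuclear-retained RNAs, 4 Schwann cell, 4 fibroblast, 3 endothelial and pericyte and 3 cycling cell markers higher. It also called 1 satellite glia and 1 platelet and red cell marker higher. Lower in DESeq2 were 3 satellite glia markers, 3 macrophage markers and 1 sensory neuron marker. With 1 library left out, Tuba1b ran from -0.071 to 0.014 and Tubb5 from -0.038 to 0.015. Signs turned for Tuba1b, Tubb4a and Tubb5, whose values lie near 0: Tuba1b at 0.014 without vehicle replicate 3, 0.017 without vehicle replicates 3 and 5 and 0.034 with the nuclear-retained RNA covariate; Tubb4a at -0.0044 without oxaliplatin replicate 1 and vehicle replicate 5; and Tubb5 at 0.016 without a composition factor, 0.0045 in limma voom, 0.019 with the pan-neuronal covariate, 0.015 without vehicle replicate 3, 0.0096 without vehicle replicates 3 and 5 and 0.0065 with the nuclear-retained RNA covariate. The cause was not tested. Same-numbered libraries of the groups correlated from -0.09 to 0.47 in their deviations, with 0.47 for replicate 3 and 0.36 for replicate 5. Of 10 libraries, 4 correlated best with their own number. The main fit did not pair them, and whether the numbers mark libraries handled together was not tested. With the replicate block, Tuba4a, Tubb2a and Tubb2b were called lower, where 1.51% of all genes were called lower.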
